A study of Mus musculus with 26 samples.

Results

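Collagen genes were followed through heat, hydrogen peroxide (H2O2) and potassium chloride (KCl) treatment in NIH3T3, a long-established fibroblast line from mouse embryos. Members were all gene symbols made of Col, a type number, the letter a and a chain number. The rule found 44 of 20430 symbols in the RNA table and 44 of 19941 in the footprint table. By protein type, 11 encode fibrillar chains, 8 encode chains of the basement membrane or its adjoining zone, and 25 encode minor collagens such as beaded filament, network, fibril-associated and transmembrane types.

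Polyadenylated RNA was sequenced in 8 groups of 2 libraries, in 2 experiments that each had their own control. The heat experiment had a control, 2 h at 44 °C and 8 h at 42 °C. The other experiment had 1 control shared by H2O2 for 2 h or 7 h and KCl for 2 h or 7 h, and ribosome footprints were sequenced for those 5 groups. Footprints are the short mRNA pieces that a ribosome protects from nuclease, and they count ribosomes on a message. The labels describe H2O2 as an oxidative and KCl as an osmotic stress and give no concentrations. All groups are 1 cell line, so the report holds for that line. The labels number the replicates without saying that they came from separate cultures, so every p-value measures only the spread between these libraries, which may be technical.

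The RNA libraries held 24441877 to 45244430 estimated counts and the footprint libraries 1460751 to 5168537, so the footprint values are the less precise. The 8 fibroblast markers were all above 1 TPM (a level corrected for transcript length and scaled to the same total in every library), and their summed level was 3742 to 8381 TPM. Summed levels of blood markers were 0 to 1.24 TPM, of endothelial markers 0.42 to 3.37 TPM, of epithelial markers 0.88 to 6.93 TPM and of skeletal muscle markers 0.03 to 6.07 TPM. Chondrocyte markers summed to 8.66 to 32.8 TPM, of which Sox9, a regulator of cartilage genes that fibroblast lines can also express, made up most. Acan, a defining cartilage proteoglycan, stayed at or below 0.16 TPM.

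Collagens are the main structural proteins of the extracellular matrix. Their alpha chains carry long repeats with evenly spaced glycines, are hydroxylated and folded into a helix in the endoplasmic reticulum, and are trimmed and cross-linked outside the cell. Fibrillar collagens, with type I the most abundant, form the cables that fibroblasts are known for laying down. Type IV collagen forms the sheet of basement membranes, and the minor collagens link, anchor or decorate those structures.

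The start regions below are shown because 3 fibrillar genes that fell after 7 h of H2O2 (Col1a2, Col3a1 and Col5a1) and a pair that rose (Col5a3 and Col27a1) can be compared with them. The run between Col4a2 and Col4a1 is shown because those genes start head to head and yet moved apart at 44 °C. Sequences are from the RefSeq promoter table of GRCm38.p6, the assembly also named mm10. The single-gene runs cover the 250 bases before 1 annotated start of each gene, 5′ to 3′ on the gene's strand. RefSeq gene spans reach further upstream for Col27a1 (from 63214009), Col5a1 (from 27886381) and Col5a3 (minus strand, up to 20815117). The same holds for Col4a1 (minus strand, up to 11312889), so the distance between the Col4a1 and Col4a2 starts also depends on the start used. A run therefore holds only for the start used. Capitals mark a match on either strand to TATAAA (the core of a TATA box), to CCAAT, or to GGGCGG (the core of a GC box). The last reads CCGCCC where it lies on the other strand. A match is a description, not a site or a cause.
Col1a2: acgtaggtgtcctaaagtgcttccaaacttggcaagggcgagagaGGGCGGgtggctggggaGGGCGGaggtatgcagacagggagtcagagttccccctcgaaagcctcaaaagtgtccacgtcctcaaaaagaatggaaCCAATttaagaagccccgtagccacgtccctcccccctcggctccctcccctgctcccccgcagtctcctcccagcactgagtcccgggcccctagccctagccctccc
Col3a1: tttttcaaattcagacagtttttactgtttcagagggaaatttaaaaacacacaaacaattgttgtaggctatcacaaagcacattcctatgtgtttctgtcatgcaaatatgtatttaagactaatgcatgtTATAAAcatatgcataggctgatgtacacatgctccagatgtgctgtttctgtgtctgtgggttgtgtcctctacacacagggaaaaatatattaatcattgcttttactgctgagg
Col5a1: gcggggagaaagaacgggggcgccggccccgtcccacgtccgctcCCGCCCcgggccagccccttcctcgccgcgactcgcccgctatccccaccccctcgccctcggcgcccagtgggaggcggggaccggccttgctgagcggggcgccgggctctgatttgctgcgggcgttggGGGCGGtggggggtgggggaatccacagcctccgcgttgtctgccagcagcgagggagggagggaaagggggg
Col5a3: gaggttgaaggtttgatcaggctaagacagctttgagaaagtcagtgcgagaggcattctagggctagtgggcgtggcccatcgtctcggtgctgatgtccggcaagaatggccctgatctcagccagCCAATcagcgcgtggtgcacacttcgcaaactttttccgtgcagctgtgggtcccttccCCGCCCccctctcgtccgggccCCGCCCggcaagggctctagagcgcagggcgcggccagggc
Col27a1: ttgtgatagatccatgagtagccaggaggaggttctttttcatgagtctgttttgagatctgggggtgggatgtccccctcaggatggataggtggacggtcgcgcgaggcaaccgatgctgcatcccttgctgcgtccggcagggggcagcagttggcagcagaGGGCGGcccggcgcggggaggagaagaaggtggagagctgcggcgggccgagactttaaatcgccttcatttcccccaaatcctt
Col4a2-Col4a1 start sites: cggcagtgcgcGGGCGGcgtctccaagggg

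The Col1a2 run is chr6:4505368-4505617 on the plus strand, Col3a1 is chr1:45311288-45311537 plus, Col5a1 is chr2:27886175-27886424 plus, Col27a1 is chr4:63215162-63215411 plus and Col5a3 is chr9:20815068-20815317 minus. The Col4 run is chr8:11312801-11312830, written on the plus strand. The annotated start of Col4a2 (position 11312805, plus strand) lies 21 bases from that of Col4a1 (position 11312826, minus strand), so their first bases overlap on opposite strands, and the GGGCGG between the starts lies in the windows of both genes. Guanine and cytosine made up 76.4% of the Col5a1 run, 62.0% of Col1a2, 62.8% of Col5a3, 59.6% of Col27a1 and 35.2% of Col3a1, the only one of the 5 with TATAAA. A match to GGGCGG stood in Col1a2, Col5a1, Col5a3 and Col27a1 and CCAAT in Col1a2 and Col5a3. These 5 were picked by their response to H2O2. Of the other fibrillar genes called there, the window of Col11a1, which fell, holds CCAAT and GGGCGG, and that of Col11a2, which rose, holds TATAAA and GGGCGG. The table matched 35 of the 44 members in 38 windows of 300 bases, which run to 50 bases past the start. GGGCGG was found in 23 of these 38 windows against 35.658% of all 32851 windows, CCAAT in 13 against 37.408%, and TATAAA in 5 against 13.616%. Col1a1, Col2a1, Col4a3, Col5a2, Col9a3, Col12a1, Col14a1, Col22a1 and Col26a1 were not matched.

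In the unstressed cells, collagen RNA was mostly that of 2 chains. Over the 4 control libraries, Col1a1, the main chain of type I collagen, had a mean of 2449 TPM, and Col1a2, its partner chain, had 1431 TPM. Col5a2 (640 TPM), a chain of the type V collagen that sits inside type I fibrils, Col3a1 (446 TPM), the type III chain, Col6a1 (342 TPM) of the beaded filaments and Col5a1 (296 TPM), also of type V, followed. Then came Col4a1 (224 TPM) of the basement membrane, Col6a2 (162 TPM), Col4a2 (149.95 TPM) and Col8a1 (126 TPM), a network collagen. Col16a1, a fibril-associated collagen, had 70.03 TPM and Col4a5, another type IV chain, 54.9 TPM.

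Among these 12, neighbours in the order whose library ranges did not overlap were Col1a1 and Col1a2, Col1a2 and Col5a2, and Col8a1 and Col16a1. All other neighbours overlapped. The 2 controls differed for some members: Col3a1 was at 672 and 702 TPM in the heat control and at 211 and 200.1 TPM in the control of H2O2 and KCl. Col6a3, a further beaded filament chain, was at 35.2 and 37.1 TPM against 6.98 and 8.09 TPM. Col3a1 ranked 4 among the members in the heat control and 7 in the other, and Col6a2 ranked 8 and 10. Each stress was therefore read only against its own control.

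In all, 23 of the 44 members had a control mean of at least 1 TPM (8 fibrillar, 5 basement membrane, 10 minor) and 10 of at least 100 TPM. At the other end, 17 members stayed below 1 TPM in every RNA library, and Col9a1 and Col13a1 had no count in any. A filter on low counts kept 29 members in both RNA fits and 4 in 1 of them (Col15a1 with heat, and Col9a2, Col22a1 and Col28a1 with H2O2 and KCl). The other 11 never exceeded 0.11 TPM and were not tested. Because low members pass the filter where a stress raises them, the counts below are of tested members and not of all 44.

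Summed over each class, fibrillar RNA changed most in level. It was 4196.2 and 4342.2 TPM in the control of H2O2 and KCl and 1577.1 and 1660.7 TPM after 7 h of H2O2, below every other library. Over the same step minor collagens went from 540.1 and 536.4 TPM to 295.6 and 303.9 TPM. Basement membrane collagens went from 410.8 and 417.8 TPM to 399.8 and 409.2 TPM, ranges that do not overlap but lie close together. Collagens as a whole made up 0.515% and 0.530% of all RNA TPM in that control and 0.227% and 0.237% after 7 h of H2O2. After 7 h of KCl, fibrillar RNA was lower (3289.3 and 3584.7 TPM) and basement membrane RNA higher (632.3 and 667.0 TPM) than in the control. TPM is a share of all RNA, so in these bulk libraries fewer cells of a type and less RNA per cell cannot be told apart.

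**Figure D1:**
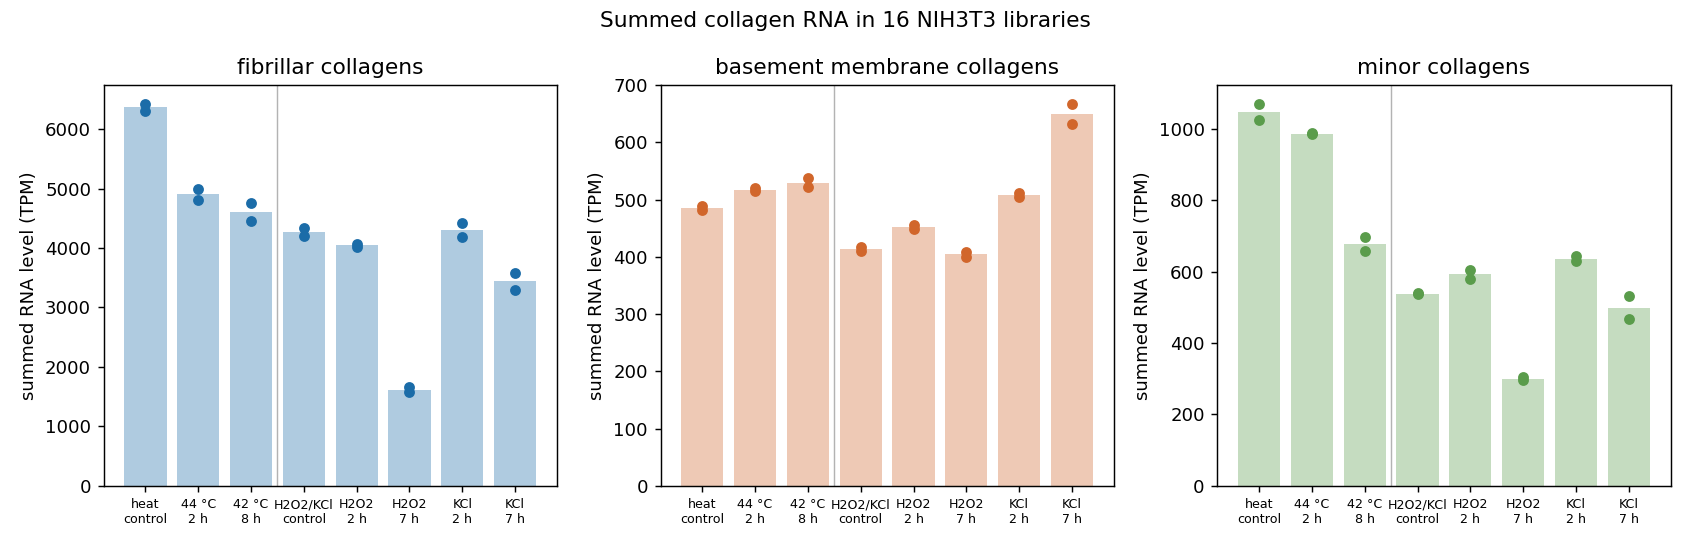
Summed RNA level of the 11 fibrillar, 8 basement membrane and 25 minor collagens in TPM, with bars for group means from 0 and points for the 2 libraries of each of 8 groups. The fibrillar panel is lowest after 7 h of H2O2 (1577.1 and 1660.7 TPM) and the basement membrane panel is highest after 7 h of KCl (632.3 and 667.0 TPM).

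At 44 °C for 2 h, most fibrillar chains fell, and 3 rarely expressed collagens (Col9a3, Col11a2 and Col20a1) rose steeply. Of 11 fibrillar genes tested 8 fell (Col1a1, Col1a2, Col3a1, Col5a1, Col5a2, Col5a3, Col11a1 and Col24a1) and 1, Col11a2, rose. In the basement membrane class Col4a1 rose while Col4a2, Col4a5 and Col4a6 fell, and in the minor class 4 rose and 6 fell. In total 23 of 30 tested collagens passed the test, 6 higher and 17 lower, against 71.0% of all 12747 genes tested (35.4% higher and 35.7% lower). The share called was close to that of all genes and the direction was not, with a median log2 fold change of -0.40 for the collagens and -0.0003 for all genes. Summed fibroblast markers were 5279 to 5401 TPM in these libraries against 7636 to 7692 TPM in the heat control, and chondrocyte markers 23.5 to 24.2 TPM against 11.8 to 12.8 TPM, with Acan at 0.03 and 0 TPM. Their part in the collagen changes was not tested.

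Col8a1 had the largest fall among the better-measured members, from 148 and 143 TPM in the heat control to 65.2 and 55.5 TPM. Both heated libraries were below both controls, and the log2 fold change was -1.33 (SE 0.05, adjusted p = 8.638e-11, edgeR quasi-likelihood fit, p adjusted by Benjamini and Hochberg's method, as everywhere below). Col11a1, a chain of the type XI collagen that starts cartilage fibrils, was at 8.38 and 8.76 TPM in the control and at 4.17 and 4.41 TPM at 44 °C (log2 fold change -1.11, SE 0.07). Col24a1, a fibrillar collagen of developing bone, went from 0.80 and 0.96 TPM to 0.55 and 0.51 TPM (-0.87, SE 0.19). The abundant fibrillar chains fell by less: Col1a1 went from 2727 and 2835 TPM to 2203 and 2136 TPM (-0.42, SE 0.04), and Col1a2 from 1736.42 and 1736.18 TPM to 1363 and 1293 TPM (-0.45, SE 0.04). In neither did the groups overlap.

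The chains of type IV collagen that are built as a pair moved apart. Col4a1 was at 238 and 243 TPM in the control and at 332 and 328 TPM at 44 °C (log2 fold change 0.39, SE 0.04, adjusted p = 4.229e-07). Col4a2 was at 154 and 157 TPM and then at 117 and 121 TPM (-0.45, SE 0.04, adjusted p = 2.103e-07). The 2 genes share the bases between their start sites printed above, and their libraries separated in opposite directions. No source used here says whether the counting used the strand of a read, and the part of that in these values was not tested.

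Col11a2, another type XI chain, rose from 0.95 and 0.70 TPM to 4.56 and 4.68 TPM (log2 fold change 2.66, SE 0.13), and Col20a1, a fibril-associated collagen, from 1.75 and 1.96 TPM to 6.64 and 7.39 TPM (1.83, SE 0.09). Col9a3, a chain of the cartilage collagen type IX, was lower still and went from 13 and 13 counts to 77 and 77 (2.73, SE 0.27). These rises were from levels near 1 TPM or below, and they added little to the collagen total.

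Of the genes that make collagen ready for use, Serpinh1, the collagen chaperone of the endoplasmic reticulum that is itself a heat shock protein, rose from 1543 and 1556 TPM to 3507 and 3564 TPM (log2 fold change 1.14, SE 0.04). P4ha1, a prolyl hydroxylase subunit, rose by 1.22 on the log2 scale (SE 0.04), P4ha2 by 0.77 (SE 0.04), P4hb by 0.13 (SE 0.04) and the lysyl hydroxylase Plod2 by 0.45 (SE 0.05). Lox, which cross-links secreted collagen, fell by 1.17 on the log2 scale (SE 0.05). Over the fixed lists, 6 of 14 modifying enzymes rose and 6 fell, and 2 of 13 folding and export genes rose and 8 fell, with Mia2, a cargo receptor for collagen export, at -1.26. In processing and cross-linking 2 of 11 rose and 8 fell, and among fibril partners 2 of 12 rose and 9 fell, with Ogn, a small leucine-rich proteoglycan, at -1.74. Of 8 collagen receptors 1 rose (Itga10, an integrin subunit, 1.83) and 5 fell, with Itga11, an integrin that binds fibrillar collagen, at -2.38.

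At 42 °C for 8 h, type III and type VI collagen fell, type XII rose, and the type IV chains were split. Col3a1, the type III chain, went from 672 and 702 TPM to 209 and 238 TPM (log2 fold change -1.43, SE 0.05, adjusted p = 3.925e-11), well apart from its control. The type VI chains Col6a1 (-0.59, SE 0.05), Col6a2 (-0.70, SE 0.04) and Col6a3 (-0.58, SE 0.05) fell together. Col4a1 (0.47, SE 0.04) and Col4a2 (0.37, SE 0.04) rose while Col4a5 (-0.64, SE 0.05) and Col4a6 (-0.58, SE 0.08) fell, and Col12a1, a fibril-associated collagen, rose from 53.1 and 54.2 TPM to 81.5 and 78.2 TPM (0.76, SE 0.06). Of 30 tested collagens 22 passed, 6 higher and 16 lower, against 63.6% of all genes (31.7% higher and 31.9% lower), with medians of -0.32 and -0.01.

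By class, 1 fibrillar gene rose and 7 fell, 3 basement membrane genes rose and 2 fell, and 2 minor genes rose and 7 fell. Col14a1, a fibril-associated collagen, had 37 and 59 counts in the control and 9 and 7 at 42 °C (log2 fold change -2.24, SE 0.41), and Col24a1 went from 114 and 115 counts to 46 and 40 (-1.07, SE 0.19). Col2a1, the main fibrillar chain of cartilage, had 42 and 18 counts in the control and 73 and 42 at 42 °C (1.28, SE 0.30). The lower heated library equalled the higher control in counts, the call was lost without heat replicate 1 at 42 °C (log2 fold change 1.00, adjusted p = 0.0501), and the value was 1.88 without heat control replicate 1. Among the related genes, the proteoglycan Dcn had the largest fall of the fibril partners (-2.67, SE 0.31), where 10 of 12 fell and only Fn1, fibronectin, rose (0.64, SE 0.04). Pcolce2, which enhances the trimming of fibrillar chains, rose by 1.64 (SE 0.10) on the log2 scale in a list where 3 of 11 rose and 5 fell.

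Set against each other, the 2 heat treatments differed in 25 of 30 tested collagens, 13 higher and 12 lower at 42 °C for 8 h than at 44 °C for 2 h. Of all genes 75.1% differed (37.9% higher and 37.2% lower), and the 2 shares were not tested against each other. Temperature and time changed together, so neither can be told apart from the other. The largest differences in the lower direction were those of Col11a2 (log2 fold change -2.70, SE 0.13), Col14a1 (-2.53, SE 0.40) and Col20a1 (-1.89, SE 0.09), and those in the higher direction were Col2a1 (1.71, SE 0.32), Col12a1 (1.22, SE 0.06) and Col4a2 (0.83, SE 0.04). At 42 °C Col11a2 (0.65 and 0.61 TPM) and Col20a1 (1.55 and 1.60 TPM) did not pass the test against their control. A fit on log2(TPM + 1) shifted the median of all genes to -0.20 and gave 9 higher and 16 lower. On that scale Col1a1 was -0.015 and Col1a2 -0.13, where the counts gave 0.24 (SE 0.04) and 0.12 (SE 0.04), so no direction is given for these 2 genes.

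After 2 h of H2O2, the abundant collagens stayed near their control levels and several cartilage and fibril-associated chains rose from very low levels. Of 32 tested collagens 12 passed, 11 higher and 1 lower, against 53.9% of all 13256 genes tested (27.3% higher and 26.5% lower). The share called was below that of all genes, and the median was 0.15 against -0.0009. The risers were Col2a1, Col11a2, Col5a3 and Col27a1 among the fibrillar genes, Col18a1 in the basement membrane class, and Col8a1, Col9a3, Col17a1, Col20a1, Col22a1 and Col28a1 among the minor genes. Col22a1 (1 and 1 counts in the control, then 11 and 16) and Col28a1 (5 and 2, then 13 and 16) entered the fit through these treated libraries. Col2a1 (13 and 8 control counts) and Col9a3 (6 and 14) were also kept through treated libraries of this experiment, not through the control. The places of Col2a1, Col9a3, Col22a1 and Col28a1 in the count of 11 therefore depend on the filter.

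Col9a3 went from 0.11 and 0.29 TPM to 6.31 and 5.84 TPM (log2 fold change 5.04, SE 0.24, adjusted p = 8.186e-10). Leaving out control replicate 1 or 2 gave 4.38 or 5.91 for Col9a3, since its control held 6 and 14 counts. Col2a1 went from 0.12 and 0.09 TPM to 2.76 and 3.24 TPM (4.84, SE 0.21), and Col11a2 from 0.30 and 0.38 TPM to 10.1 and 9.13 TPM (4.79, SE 0.17). No treated library overlapped the control in any of the 3. Col20a1 rose from 1.68 and 1.58 TPM to 10.1 and 9.04 TPM (2.20, SE 0.11) and Col5a3, the less common type V chain, from 39.6 and 41.1 TPM to 71.0 and 64.0 TPM (0.72, SE 0.08).

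Summed chondrocyte markers were higher in the same libraries, at 28.5 to 32.8 TPM against 8.66 to 10.05 TPM in the control. Nearly all of that was Sox9, at 27.7 and 32.0 TPM against 7.85 and 9.41 TPM, while Acan stayed at 0.02 and 0.03 TPM. Matn3 was at 0.49 and 0.35 TPM and Comp at 0.33 and 0.38 TPM, both near control. Sums of other lists were higher too: blood 0.89 to 1.24 TPM against 0 to 0.02, endothelial 2.48 to 3.37 against 0.42 to 0.73. Epithelial markers were 3.54 to 4.07 TPM against 1.00 to 1.18, and muscle 0.34 to 0.38 against 0.13 to 0.27. Summed fibroblast markers were lower, at 6614 to 6848 TPM against 7021 to 7193, but the single markers were split. Vim was at 3047 and 2933 TPM against 3460 and 3492, and S100a4, Pdgfra and Pdgfrb were also lower. Fn1 was at 1116 and 1158 TPM against 926 and 946, and Sparc and Thy1 were also higher. Fbn1 overlapped its control. The part of Sox9 and of these other shifts in the rise of Col2a1, Col9a3 and Col11a2 was not tested. In the KCl and heat groups, below and above, Sox9 was higher than control too. The single fall was that of Col1a1, from 2035 and 2199 TPM to 1868 and 1926 TPM (log2 fold change -0.16, SE 0.06, adjusted p = 0.0485). It did not pass without treated replicate 1 (adjusted p = 0.0698), treated replicate 2 (0.103) or control replicate 2 (0.24). Of the lists, 6 of 14 modifying enzymes, 4 of 12 processing genes, 2 of 12 fibril partners and 4 of 8 receptors rose and none of these fell, whereas 1 of 13 folding and export genes rose and 4 fell. Tll2, of the processing list, rose by 4.26 (SE 0.55) on the log2 scale, but from 0.02 and 0.02 TPM to only 0.48 and 0.41 TPM.

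The main fibrillar chains fell to their lowest levels of the 16 RNA libraries after 7 h of H2O2, while a separate group of collagens rose. Of 32 tested collagens 26 passed, 10 higher and 16 lower, against 70.5% of all genes (39.4% higher and 31.1% lower), with medians of -0.68 and 0.08. Of the fibrillar genes 6 fell (Col1a1, Col1a2, Col3a1, Col5a1, Col5a2 and Col11a1) and 4 rose (Col2a1, Col5a3, Col11a2 and Col27a1). In the basement membrane class 4 type IV chains fell and Col18a1 rose, and in the minor class 6 fell, among them all 3 expressed type VI chains, and 5 rose.

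**Figure D2:**
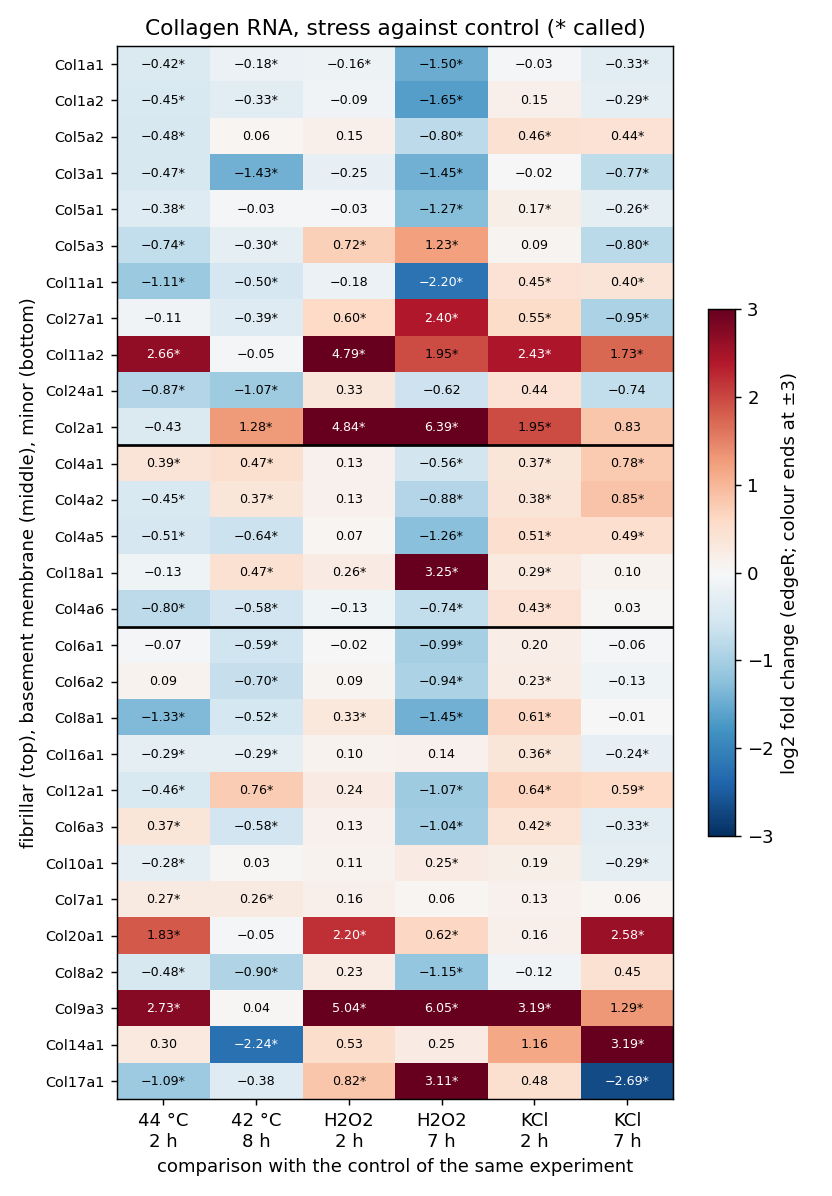
Log2 fold change of RNA (colour, ending at ±3) for the 29 collagens tested in both experiments, in 6 comparisons of a stress with its control. Stars mark calls at an adjusted p under 0.05. The column for 7 h of H2O2 holds falls of most abundant chains beside rises of Col2a1, Col9a3, Col18a1 and Col17a1.

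Col1a1 went from 2035 and 2199 TPM to 694 and 724 TPM (log2 fold change -1.50, SE 0.07, adjusted p = 6.791e-11). Col1a2 went from 1121 and 1131 TPM to 333 and 345 TPM (-1.65, SE 0.07, adjusted p = 3.069e-11). The treated libraries of both type I chains lay below all other RNA libraries. Col3a1 went from 211 and 200.1 TPM to 67.1 and 75.6 TPM (-1.45, SE 0.14), Col5a1 from 217 and 223 TPM to 85.5 and 87.2 TPM (-1.27, SE 0.06), and Col5a2 from 571 and 545 TPM to 289 and 320 TPM (-0.80, SE 0.06). Col11a1 had the largest fall on the log2 scale, from 0.93 and 0.80 TPM to 0.18 and 0.20 TPM (-2.20, SE 0.22).

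Of the other high members, Col8a1 went from 103 and 108 TPM to 33.7 and 39.6 TPM (log2 fold change -1.45, SE 0.08) and Col4a5 from 41.6 and 40.3 TPM to 16.3 and 16.1 TPM (-1.26, SE 0.07). Col4a1 (-0.56, SE 0.06) and Col4a2 (-0.88, SE 0.06) fell together here, unlike at 44 °C. Col6a1 (-0.99, SE 0.08), Col6a2 (-0.94, SE 0.07) and Col12a1 (-1.07, SE 0.13) fell by similar amounts. Col16a1 (0.14, SE 0.07) and Col7a1, which anchors basement membranes to the tissue below (0.06, SE 0.08), did not pass the test.

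Among the risers, Col18a1, whose product is the source of the fragment endostatin, had the highest level. It went from 19.5 and 20.4 TPM to 180.2 and 179 TPM (log2 fold change 3.25, SE 0.06, adjusted p = 1.669e-14), and in no other RNA library did it exceed 23.8 TPM. Col18a1 thereby passed Col4a1 and became the highest of the basement membrane class, whose sum stayed near its control. Col2a1 went from 0.12 and 0.09 TPM to 8.27 and 8.88 TPM (6.39, SE 0.18) and Col9a3 from 0.11 and 0.29 TPM to 12.04 and 11.97 TPM (6.05, SE 0.22; 5.40 or 6.93 without control replicate 1 or 2). Col9a2, the partner of Col9a3 in type IX collagen, had 0 and 0 counts in the control and 39 and 22 counts after 7 h. Col9a2 entered the fit through these treated libraries, and Col2a1 and Col9a3 through treated libraries of the same experiment. The places of Col2a1, Col9a2 and Col9a3 among the risers therefore depend on the filter.

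Col27a1 went from 1.47 and 1.83 TPM to 8.48 and 9.12 TPM (log2 fold change 2.40, SE 0.10), Col5a3 from 39.6 and 41.1 TPM to 89.7 and 89.5 TPM (1.23, SE 0.08) and Col17a1, a transmembrane collagen of hemidesmosomes, from 0.15 and 0.18 TPM to 1.46 and 1.19 TPM (3.11, SE 0.24). The treated libraries were above every control library in each. Some markers outside the collagens were higher in these libraries and others were not. Matn1, a cartilage matrix protein, was at 5.23 and 5.0 TPM, and at 0.05 TPM or less in every other RNA library. Matn3, another cartilage marker, was at 0.11 and 0.11 TPM against 0.46 and 0.33 TPM in the control. Comp was at 0.29 and 0.38 TPM against 0.27 and 0.29 TPM. Summed muscle markers were 5.21 to 6.07 TPM against 0.13 to 0.27 TPM in the control. Most of that was Des (4.52 and 5.3 TPM), with Myod1 at 0 and 0.05 TPM. Epithelial markers were 3.65 to 3.81 TPM against 1.00 to 1.18 TPM, with Krt5 at 2.01 and 1.89 TPM. Endothelial markers were 1.74 to 2.0 TPM against 0.42 to 0.73 TPM. Sox9 was at 6.66 and 7.29 TPM, below its control, and Acan at 0.01 and 0.04 TPM. Summed fibroblast markers were 3742 to 3778 TPM against 7021 to 7193 TPM in the control. The part of these shifts in the collagen changes was not tested.

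The genes around collagen moved as follows after 7 h of H2O2. None of 12 fibril partners rose and 10 fell, with Fmod, a proteoglycan of fibrils, at -2.79 and Sparc, a collagen-binding matrix protein, at -0.83. Fmod was low throughout, at 0.31 and 0.29 TPM in the control and 0.02 and 0.06 TPM after 7 h. None of 12 processing and cross-linking genes rose and 7 fell, among them Lox (-1.18) and Tll1, a procollagen protease (-2.31). Of 14 modifying enzymes 1 rose and 7 fell, and the riser was Plod2, which went from 14.7 and 13.3 TPM to 106 and 118 TPM (log2 fold change 3.08, SE 0.08). Of 13 folding and export genes 3 rose, led by the transcription factor Creb3l1 (1.20), and 7 fell, led by Fkbp14 (-1.63), while Serpinh1 did not pass (-0.11, SE 0.06). Of 8 receptors 4 rose and 2 fell, with the integrin subunit Itga2 going from 0.18 and 0.22 TPM to 8.92 and 8.93 TPM (5.55, SE 0.15).

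Between 2 h and 7 h of H2O2, 27 of 32 collagens differed, 7 higher and 20 lower at 7 h, against 73.4% of all genes (37.3% higher and 36.1% lower). The median was -0.99 against 0.0004. Col11a2 was among those that came down, from 10.1 and 9.13 TPM to 1.32 and 1.17 TPM (log2 fold change -2.84, SE 0.15), and so was Col20a1 (-1.58, SE 0.11). Col9a3 (1.02, SE 0.13), Col2a1 (1.55, SE 0.11), Col18a1 (2.99, SE 0.06), Col17a1 (2.29, SE 0.23) and Col27a1 (1.80, SE 0.10) were higher still at 7 h. Col8a1 was up at 2 h (0.33, SE 0.07) and down at 7 h, a difference of -1.78 (SE 0.08).

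**Figure D3:**
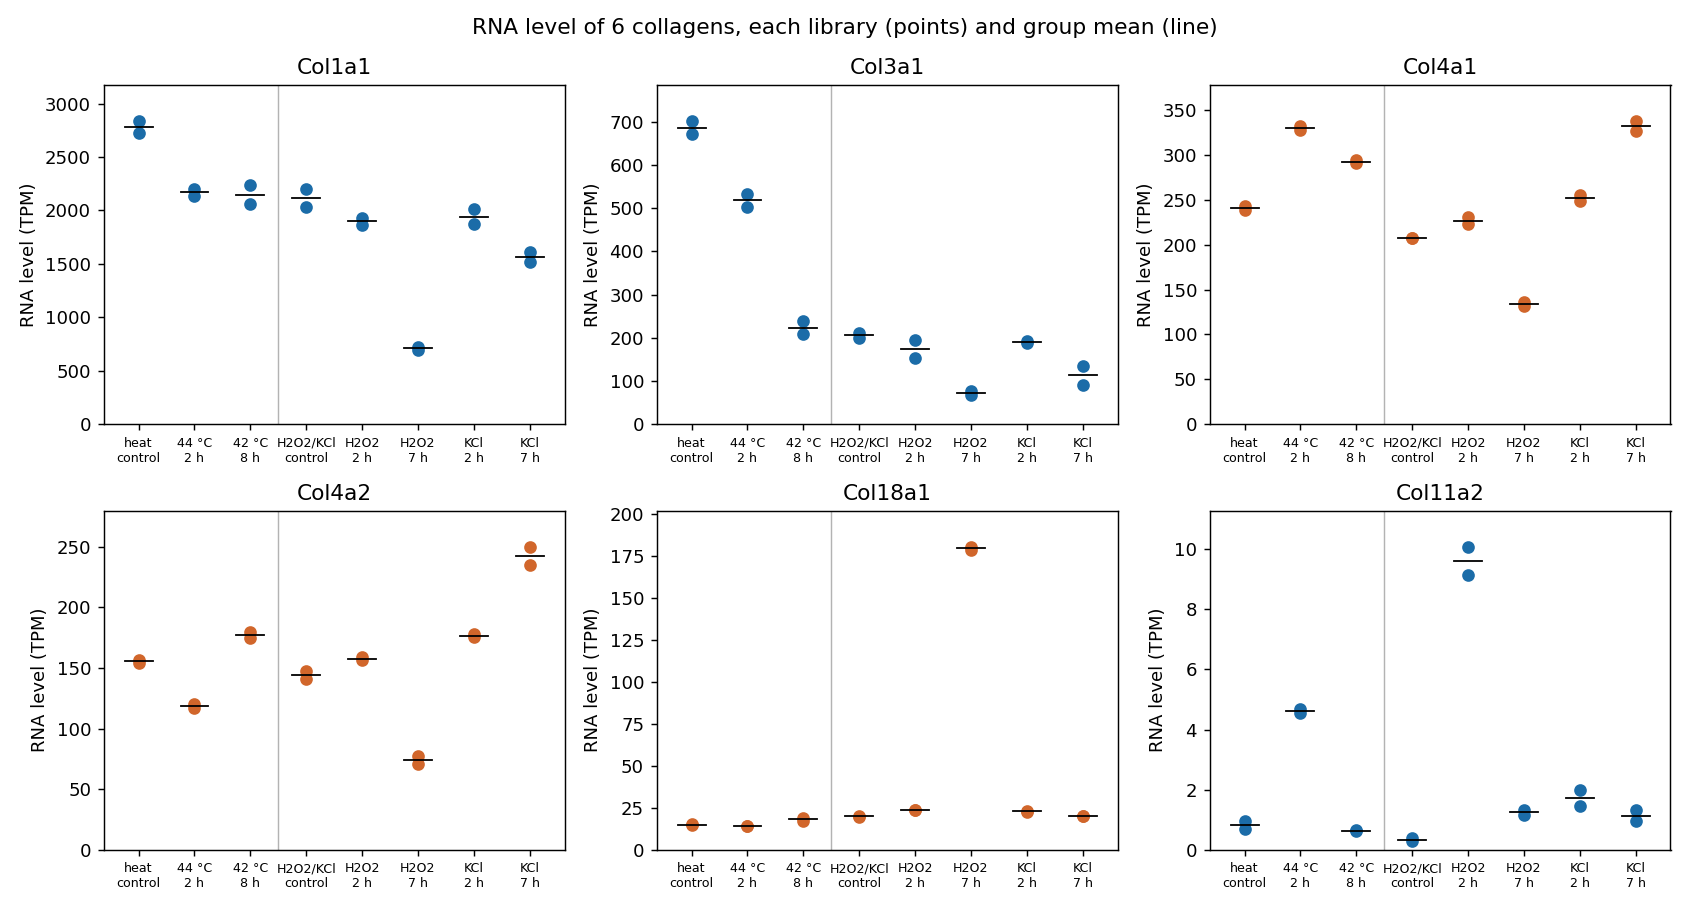
RNA level in TPM of Col1a1, Col3a1, Col4a1, Col4a2, Col18a1 and Col11a2 in each of the 16 RNA libraries, with a line at each group mean and a vertical rule between the heat experiment and the H2O2 and KCl experiment. Col18a1 stands at 180.2 and 179 TPM after 7 h of H2O2, and Col11a2 at 10.1 and 9.13 TPM after 2 h.

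After 2 h of KCl every collagen that passed the test was higher, and the rises were small for the abundant chains. Of 32 tested collagens 17 passed, all of them higher, against 54.2% of all genes (27.2% higher), with medians of 0.40 and 0. By edgeR 0 collagens were lower, also at an unadjusted p under 0.05, and DESeq2 and limma called 0 lower. By class 6 fibrillar, 5 basement membrane and 6 minor genes rose. The type IV chains Col4a1 (log2 fold change 0.37, SE 0.06), Col4a2 (0.38, SE 0.06) and Col4a5 (0.51, SE 0.07) rose together, and Col8a1 went from 103 and 108 TPM to 146 and 158 TPM (0.61, SE 0.07). Col5a2 (0.46, SE 0.06) and Col16a1 (0.36, SE 0.07) also rose, while Col1a1 (-0.03, SE 0.06) and Col1a2 (0.15, SE 0.06) did not pass.

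The largest rises were again those of low members. Col9a3 went from 0.11 and 0.29 TPM to 1.73 and 1.52 TPM (log2 fold change 3.19, SE 0.32; 2.53 or 4.06 without control replicate 1 or 2), Col11a2 from 0.30 and 0.38 TPM to 2.00 and 1.44 TPM (2.43, SE 0.21), and Col2a1 from 13 and 8 counts to 22 and 25 counts (1.95, SE 0.33). Sox9 was at 20.2 and 18.9 TPM in these libraries. Col9a3 and Col2a1 entered the fit through treated libraries of the experiment, so their places among the risers depend on the filter. Near the threshold, Col5a1 (0.17, SE 0.06) lost its call without KCl replicate 1 (adjusted p = 0.138) or either control (0.0985 and 0.0575), and Col6a2 (0.23, SE 0.07) without KCl replicate 1 (0.079) or control replicate 2 (0.0751). Of the related genes 9 of 14 modifying enzymes, 6 of 12 processing genes and 4 of 12 fibril partners rose with no fall, 4 of 13 folding and export genes rose and 2 fell, and 6 of 8 receptors rose and 1 fell. P4ha1 (0.54, SE 0.08), P4hb (0.51, SE 0.07) and Lox (0.34, SE 0.08) were among them.

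Basement membrane collagen was higher after 7 h of KCl, and the fibrillar chains were split. Col4a1 went from 207.64 and 207.89 TPM to 327 and 338 TPM (log2 fold change 0.78, SE 0.06, adjusted p = 2.539e-08), and Col4a2 from 141 and 148 TPM to 235 and 249.9 TPM (0.85, SE 0.06, adjusted p = 2.489e-08). Col4a5 (0.49, SE 0.07), Col5a2 (0.44, SE 0.06) and Col12a1 (0.59, SE 0.13) rose as well. Col1a1 went from 2035 and 2199 TPM to 1518 and 1613 TPM (-0.33, SE 0.06), Col1a2 fell by 0.29 (SE 0.07), Col5a1 by 0.26 (SE 0.06) and Col3a1 by 0.77 (SE 0.14) on the log2 scale. Summed epithelial markers were 5.76 to 6.93 TPM in these libraries against 1.00 to 1.18 TPM in the control, most of it Cldn4 (4.85 and 5.65 TPM), with Cdh1 at 0.66 and 0.60 TPM and Krt5 at 0. Endothelial markers were 2.73 to 2.94 TPM against 0.42 to 0.73 TPM, most of it Kdr, with Pecam1 at 0.12 and 0.15 TPM and Cdh5 at 0 and 0.02 TPM. The part of these shifts in the collagen changes was not tested.

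Of 32 tested collagens 20 passed, 10 higher and 10 lower, against 68.8% of all genes (37.2% higher and 31.6% lower), and both medians were 0.04. By class 3 fibrillar genes rose and 6 fell, 3 basement membrane genes rose and none fell, and 4 minor genes rose and 4 fell. Col20a1 went from 1.68 and 1.58 TPM to 8.75 and 9.46 TPM (log2 fold change 2.58, SE 0.11). Col14a1 went from 7 and 3 counts to 32 and 23 (3.19, SE 0.45). It entered the fit through these KCl libraries, so its place in the count of 10 depends on the filter. Col9a3 entered through treated libraries of the experiment too, so the same holds for its place. Col11a2 rose to 0.96 and 1.32 TPM (1.73, SE 0.23). The rise of Col9a3 (1.29, SE 0.44) rested on few counts, 13 and 16 against 6 and 14, and was 0.99 without KCl replicate 2 (adjusted p = 0.135), 0.64 without control replicate 1 (adjusted p = 0.22) and 2.17 without control replicate 2.

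Col17a1 fell from 18 and 17 counts to 1 and 2 (log2 fold change -2.69, SE 0.62; -3.37 without KCl replicate 2), Col27a1 from 1.47 and 1.83 TPM to 0.95 and 0.86 TPM (-0.95, SE 0.13), and Col5a3 from 39.6 and 41.1 TPM to 19.2 and 23.8 TPM (-0.80, SE 0.09). None of the 3 groups overlapped its control. The fall of Col16a1 (-0.24, SE 0.07) was not called without KCl replicate 1 (-0.16, adjusted p = 0.118). Among related genes 7 of 14 modifying enzymes rose, with P3h2, a prolyl 3-hydroxylase, at 1.82, and 4 fell. Of 12 processing genes 3 rose, led by Loxl4, a lysyl oxidase, at 2.34, and 5 fell. Of 12 fibril partners 5 rose, led by the tenascin Tnxb at 3.66, and 3 fell, led by Prelp at -2.22. Prelp was low throughout, at 0.36 and 0.35 TPM in the control and 0.1 and 0.03 TPM with KCl. Folding and export genes rose in 7 of 13 and fell in 4, and receptors rose in 5 of 8 and fell in 1.

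From 2 h to 7 h of KCl, 22 of 32 collagens differed, 4 higher and 18 lower at 7 h, against 68.8% of all genes (35.1% higher and 33.7% lower), with medians of -0.38 and 0. The 4 were Col4a1 (0.41, SE 0.06), Col4a2 (0.47, SE 0.06), Col20a1 (2.42, SE 0.12) and Col14a1 (2.03, SE 0.44). The largest falls were those of Col17a1 (-3.17, SE 0.62; -3.85 without KCl replicate 2 at 7 h), Col9a3 (-1.89, SE 0.30) and Col27a1 (-1.51, SE 0.13). Col6a1 (-0.26, SE 0.08) lost its call without KCl replicate 1 at 7 h (-0.12, adjusted p = 0.206).

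Because H2O2 and KCl share their control, the 2 stresses were also compared directly at equal times. At 2 h, 20 of 32 collagens differed, 7 higher and 13 lower in H2O2, against 51.3% of all genes (27.0% higher and 24.2% lower). The higher ones were led by Col2a1 (log2 fold change 2.89, SE 0.18), Col11a2 (2.36, SE 0.14) and Col20a1 (2.04, SE 0.12), and the lower ones by Col11a1 (-0.62, SE 0.17), Col4a6 (-0.56, SE 0.16) and Col4a5 (-0.44, SE 0.07). Without H2O2 replicate 2 the count was 12, with Col11a1 at -0.45 (adjusted p = 0.0805) and Col4a6 at -0.45 (0.0729), and on log2(TPM + 1) it was 7 higher and 7 lower.

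At 7 h, 27 of 32 differed, 9 higher and 18 lower in H2O2, against 78.4% of all genes (41.0% higher and 37.4% lower), and the median was -0.75 against 0.05. Col17a1 differed most, at 1.46 and 1.19 TPM with H2O2 and 0.01 and 0.03 TPM with KCl (log2 fold change 5.80, SE 0.41; 6.48 without KCl replicate 2). Col2a1 (5.56, SE 0.19), Col9a3 (4.76, SE 0.22), Col27a1 (3.35, SE 0.12), Col18a1 (3.15, SE 0.06) and Col5a3 (2.03, SE 0.09) were higher with H2O2. Col4a1 was at 131 and 136 TPM with H2O2 and 327 and 338 TPM with KCl (-1.33, SE 0.06), and Col4a2 at 71.0 and 77.2 TPM against 235 and 249.9 TPM (-1.73, SE 0.06). The difference of Col3a1 (-0.68, SE 0.14) was -0.38 without KCl replicate 2.

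Over the 6 comparisons of a stress with its control, 6 of the 29 collagens tested in all were called in the lower direction alone where called (Col1a1, Col1a2, Col3a1, Col6a1, Col8a2 and Col24a1) and 6 in the higher direction alone (Col2a1, Col7a1, Col9a3, Col11a2, Col18a1 and Col20a1). The other 17 were called in both directions in different stresses. No collagen was called in 1 direction in all 6. No share over all genes stands beside these counts, so nothing particular to collagens is read from them.

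Ribosome footprints were far fewer, and 23 collagens had enough for a test. In the control, Col1a1 had 1323 and 1486 footprint TPM, Col1a2 709 and 640.4, Col5a2 303 and 323, Col5a1 163 and 179.6, and Col4a1 116 and 168. Some members differed strongly between the 2 replicates of a group: Col3a1 stood at 72.4 and 23.1 footprint TPM in the control, at 71.8 and 18.1 after 2 h of KCl and at 54.9 and 24.1 after 7 h of KCl, with the first replicate high, and at 29.3 and 44.9 after 2 h of H2O2, with the second high. Col6a1, at 122 and 70.6 in the control and 89.9 and 117 after 2 h of H2O2, moved likewise. In these genes a footprint change has to exceed a wide spread.

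After 7 h of H2O2, 11 of 23 collagens passed the footprint test, 7 higher and 4 lower, against 27.7% of all 10545 genes tested (17.2% higher and 10.6% lower). The median was -0.37 against 0.01. Col18a1 footprints went from 95 and 72 counts to 1335 and 1067 counts (log2 fold change 3.99, SE 0.28, adjusted p = 7.347e-07), in the same direction as its RNA. Col9a3 went from 1 and 0 footprints to 20 and 18 (5.04, SE 1.05) and Col2a1 from 0 and 8 to 46 and 52 (3.70, SE 0.89). Both values hang on a control near 0 counts: without control replicate 1 or 2 they were 7.12 or 4.27 for Col9a3 and 2.61 or 8.54 for Col2a1, and without treated replicate 2 the call of Col2a1 was lost (adjusted p = 0.0645). Col5a3 (1.74, SE 0.39), Col27a1 (2.87, SE 0.91), Col16a1 (0.97, SE 0.27) and Col7a1 (0.67, SE 0.23) were the other risers. Col9a3, Col2a1 and Col27a1 (6 and 0 footprints in the control, then 23 and 18) entered the fit through these treated libraries. Their places in the count of 7 therefore depend on the filter.

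Footprints of Col5a1 fell from 163 and 179.6 TPM to 101 and 106 TPM (log2 fold change -0.84, SE 0.18), those of Col8a1 from 72.7 and 102 TPM to 46.5 and 60.8 TPM (-0.81, SE 0.22), those of Col1a2 from 709 and 640.4 TPM to 451 and 448 TPM (-0.70, SE 0.20) and those of Col1a1 from 1323 and 1486 TPM to 1002 and 998 TPM (-0.61, SE 0.20). The count of 11 fell to between 4 and 8 when any 1 of the 4 libraries was left out. Treated replicate 1 gave 4 when absent, and Col1a1 (adjusted p = 0.136), Col1a2 (0.0891), Col8a1 (0.134) and Col16a1 (0.118) were among the calls lost. Col1a2 and Col16a1 lost theirs whichever library was left out. DESeq2 gave 4 higher and 4 lower, and a fit on log2(TPM + 1), which moved the median of all genes to 0.11, gave 6 and 2.

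After 2 h of H2O2 and after 2 h of KCl no collagen passed the footprint test, against 1.91% and 6.86% of all genes. None had an unadjusted p under 0.05 by edgeR in either comparison, and DESeq2 and limma called none. For 7 h of KCl edgeR again called none, against 20.4% of all genes, with 3 at an unadjusted p under 0.05. DESeq2 called 1 there, Col5a3 (log2 fold change -1.31, adjusted p = 0.032), and limma none. Col4a1 (0.12, SE 0.22) and Col4a2 (0.07, SE 0.23) footprints after 7 h of KCl had smaller estimates than the 0.78 and 0.85 of their RNA.

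**Figure D4:**
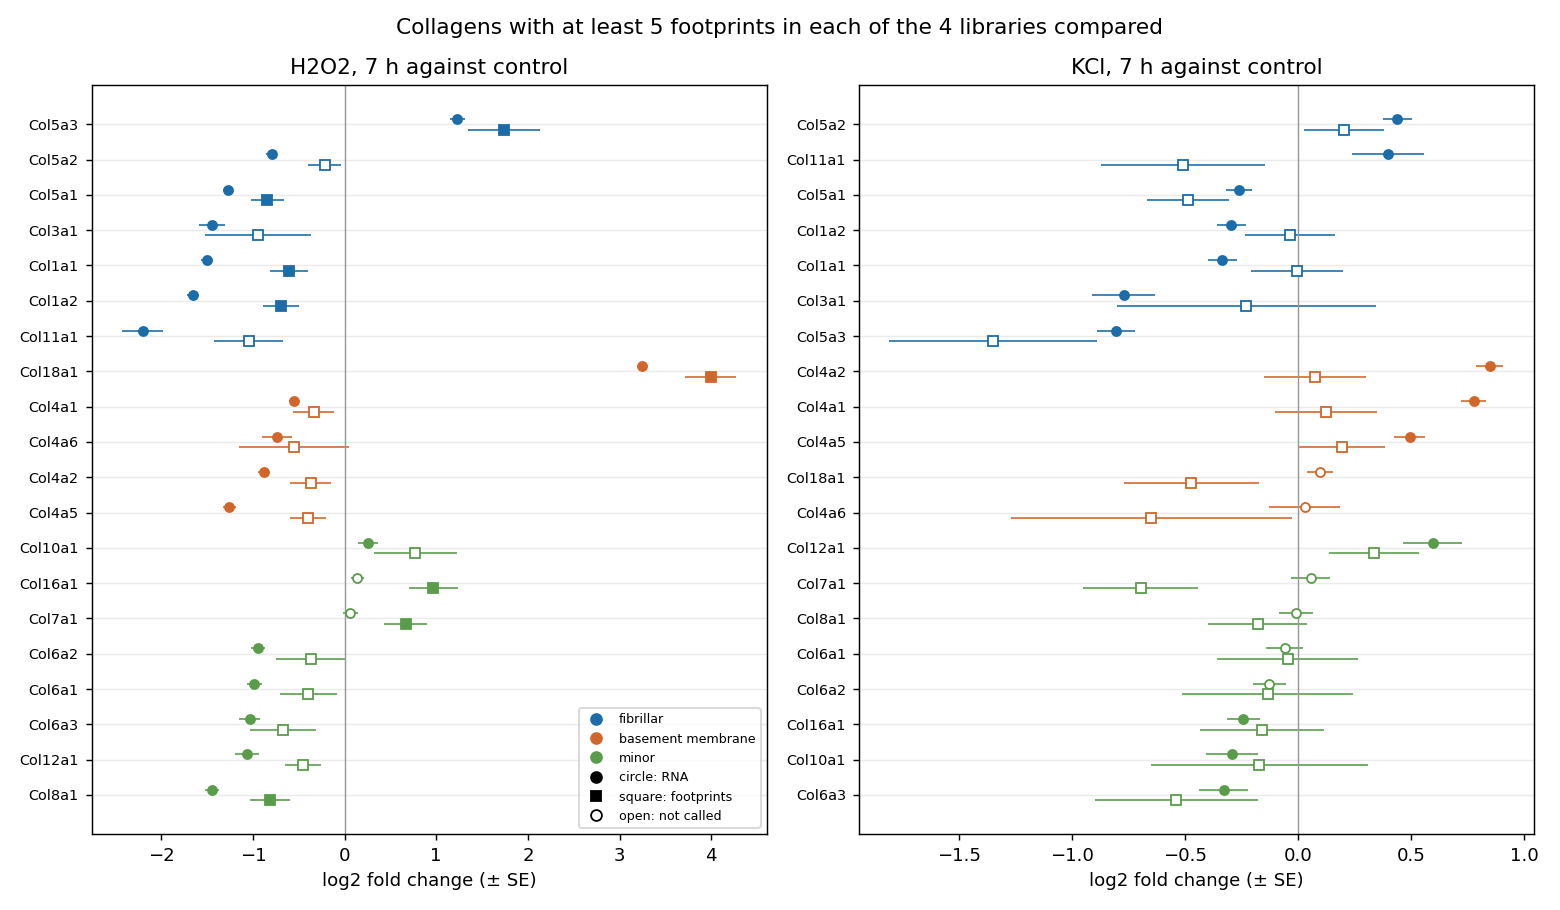
Log2 fold change with its SE of RNA (circles) and footprints (squares) after 7 h of H2O2 (left) and 7 h of KCl (right), for the 20 collagens with at least 5 footprints in each of the 4 libraries compared. Open symbols did not pass the test. At 7 h of H2O2 all 20 squares lie to the right of their circles.

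The change in footprints beyond that in RNA, called translational efficiency here, was tested as an interaction in 1 model of both kinds of library. After 7 h of H2O2 the footprint change lay above the RNA change in 20 of 20 collagens with at least 5 footprints in each library, and the efficiency estimate was above 0 in 21 of 23 tested. These members share the same 8 libraries, so the count is not of independent observations, and no share of all genes stands beside it. The median was 0.58 for the collagens and 0.06 for all genes, and 4 collagens passed, all higher, against 9.27% of all 10480 genes tested (4.69% higher). They were Col1a2 (log2 difference 0.96, SE 0.20, adjusted p = 0.00638), Col1a1 (0.89, SE 0.20, adjusted p = 0.0103), Col4a5 (0.86, SE 0.19, adjusted p = 0.00821) and Col5a2 (0.58, SE 0.17, adjusted p = 0.0383). For Col1a1 this means an RNA change of -1.50 beside a footprint change of -0.61. Col5a2 was lost without 6 of the 8 libraries (adjusted p from 0.0613 to 0.135) and Col4a5 without treated footprint replicate 1 (0.0523).

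After 2 h of KCl the footprint change lay below the RNA change in 17 of 20 collagens and after 7 h of KCl in 14 of 20. After 2 h of H2O2 it lay above in 10 of 19 and below in 9. Here too the members share libraries, and no share of all genes stands beside these sign counts. At 2 h of KCl 3 passed as lower, against 12.8% of all genes (9.18% lower), with medians of -0.46 and -0.02. They were Col18a1 (-0.94, SE 0.29, adjusted p = 0.0414), Col4a1 (-0.82, SE 0.23, adjusted p = 0.0276) and Col5a1 (-0.56, SE 0.17, adjusted p = 0.0352). Leaving out any 1 of the 4 RNA libraries left none of the 3 (adjusted p from 0.072 to 0.119). After 2 h of H2O2 only Col2a1 passed (-5.30, SE 1.39, against 11.4% of all genes, 7.46% lower), on 0 and 8 control footprints against 3 and 2. Without control footprint replicate 2 its value was 1.91 (adjusted p = 0.855), so no direction is given. After 7 h of KCl edgeR called none, against 5.57% of all genes, with 5 at an unadjusted p under 0.05 and none by limma voom.

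The low collagens that rose at 2 h of H2O2 had few footprints beside their RNA. Col11a2 went from 38 and 41 to 864 and 792 RNA counts, while its footprints were 1 and 0 in the control and 0 and 5 after 2 h. Col20a1 went from 276 and 202 to 848 and 804 RNA counts with 0 and 0 and then 1 and 4 footprints. Neither had enough footprints for a test. Other collagens of low RNA level in the same treated cells varied. Col27a1, at 2.97 and 2.37 RNA TPM, had 1 and 4 footprints and Col8a2, a network collagen at 0.92 and 0.74 RNA TPM, had 1 and 7. Col4a6, at 1.23 and 1.05 RNA TPM, had 3 and 24 and Col11a1, at 0.87 and 0.66 RNA TPM, had 24 and 98.

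Col9a3 and Col2a1 had more footprints at the later time. Col9a3 had 254 and 251 RNA counts with 2 and 1 footprints after 2 h of H2O2, and 528 and 387 RNA counts with 20 and 18 footprints after 7 h. Col2a1 had 205 and 256 RNA counts with 3 and 2 footprints after 2 h, and 656 and 543 RNA counts with 46 and 52 footprints after 7 h. Both gained proportionally more footprints than RNA between the times, a difference that was not tested as such. After 7 h Col11a2 had 119 and 88 RNA counts with 3 and 6 footprints. Col20a1 then had 250 and 239 RNA counts with 0 and 2 footprints, and Col27a1 had 970 and 727 with 23 and 18. The footprint libraries of 2 h of H2O2 held 1460751 and 5168537 counts, the least and the most of the 10, and those of 7 h held 3171340 and 3326692.

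The series also holds true or false calls, per library, for transcription that runs past the end of a gene (a downstream-of-gene transcript) and for such transcription entering the next gene (read-in). Of 6399 pairs of neighbouring genes 27 include a collagen, 13 as the upstream and 15 as the downstream gene, with Col6a1 and Col6a2 forming a pair of their own. All 27 had a downstream transcript called in at least 1 library, as had 100% of all pairs, so the table lists only pairs with such a call. A read-in call in at least 1 library was made for 3 of the 27 and for 5.45% of all pairs. Read-in from Arfgap1 into Col20a1 was called in 6 libraries, namely both at 44 °C, both at 2 h of H2O2 and both at 7 h of KCl. Across all pairs such a call in both libraries was made in 1.22%, 1.89% and 0.719% of pairs in those groups. These are the groups in which Col20a1 RNA stood at 6.64 to 10.1 TPM, against 1.55 to 2.72 TPM in all others. The downstream transcript from Arfgap1 toward Col20a1 was called more widely, in 13 libraries. Among them were both libraries of the H2O2 and KCl control, of 7 h of H2O2 and of 2 h of KCl, where Col20a1 RNA was low.

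Read-in from Rxrb into Col11a2 was called in 1 library of 2 h of H2O2, the group with the highest Col11a2 RNA, and in no library of 44 °C or 2 h of KCl, where Col11a2 also rose. A downstream transcript from Ogfr toward Col9a3 was called in 2 libraries, 1 at 44 °C and 1 at 2 h of H2O2, with no read-in call. Col7a1 was the upstream gene of the third pair, with 1 read-in call into Ucn2 at 42 °C. The part of read-in in the RNA of Col20a1 and Col11a2 was not tested.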

How the data were processed

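The 26 libraries (16 of polyadenylated RNA in 8 groups and 10 of ribosome footprints in 5 groups) have 2 replicates in each of 13 groups. The deposited tables give an expected count per gene, an estimate that need not be whole, and TPM (corrected for transcript length) per gene, both named as RSEM output in the deposited files. The submitters' processing notes name STAR, RSEM, Bowtie and mm10, with no role or version. The authors also deposited true or false calls of downstream transcripts and of read-in per gene pair and library. Their read-in estimates were not used, and neither were 12 columns of samples that are not analysed here.

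Members were taken by symbol and classed by collagen type. The members and gene lists were chosen with earlier results of these data known. Expected counts were rounded and filtered with filterByExpr, and fitted with edgeR 4.0.16 (quasi-likelihood, TMM) in R 4.3.3, with 1 model per experiment. A gene was called at a Benjamini-Hochberg adjusted p under 0.05 over all genes tested. Translational efficiency was the interaction of library kind and stress in 1 model, fitted the same way. Alternatives were DESeq2 1.42.0, other size factors, limma 3.58.1 on log2(TPM + 1) or with voom weights, no filter, fits of only the groups compared, a replicate block and leaving out each library. Fits were tested on simulated data.

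Values per library are given for the 12 members with the highest control mean and for up to 3 called members per direction and comparison. Those 3 had the largest change, an average log2 CPM (counts scaled to library size) of at least 0 and groups that do not overlap. Other members were chosen after their values were seen. These were Col9a3 at 44 °C, Col14a1 with KCl, and Col5a3, Col17a1, Col20a1, Col27a1 and Col9a2 where they were not among those 3. They also included Col22a1 and Col28a1 at 2 h of H2O2, Col6a3 in the controls, and Col4a6, Col8a2, Col11a1 and Col11a2 where RNA stands beside footprints. Promoter sequences are from RefSeq, and amino acid repeats were not analysed here. TPM carries no depth, so precision was read from the counts.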

Additional observations from a re-analysis of the deposited data

Results flagged for a closer look

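The collagens below were called in opposite directions against the control in 2 conditions, and the 2 conditions also differed when compared directly (edgeR, adjusted p under 0.05). Values are log2 fold changes of that direct comparison. No explanation was tested.

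When the heat treatments were compared, Col12a1 (1.22) and Col4a2 (0.83) were higher at 42 °C (8 h) than at 44 °C (2 h) and Col6a3 (-0.95) was lower. Between 7 h and 2 h of H2O2, Col8a1 was lower at 7 h (-1.78). Between 7 h and 2 h of KCl, Col16a1 (-0.60), Col27a1 (-1.51), Col5a1 (-0.43) and Col6a3 (-0.74) were lower at 7 h.

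H2O2 and KCl at 7 h, which share a control, split the most members. Higher with H2O2 were Col17a1 (5.80), Col27a1 (3.35), Col5a3 (2.03) and Col10a1, the network collagen of hypertrophic cartilage (0.54). Higher with KCl, and so negative here, were Col11a1 (-2.60), Col4a5 (-1.75), Col4a2 (-1.73), Col12a1 (-1.66), Col4a1 (-1.33) and Col5a2 (-1.23). The type IV chains in that list fell with H2O2 and rose with KCl against the shared control, as the rule of the list requires. Col4a6, a tested type IV chain outside the list, fell with H2O2 against that control (-0.74, SE 0.17). With KCl it was not called (0.03, SE 0.16).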

How the results depend on the processing

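Of 1683 recomputed values of 166 named results, 1588 kept their direction and call, 92 kept the direction without the call and 3 reversed. The 3 were Col1a1 (-0.015) and Col1a2 (-0.13) between the heat treatments on log2(TPM + 1), and the efficiency of Col2a1 at 2 h of H2O2, which ran from -6.39 to 1.91 when 1 library was left out. Counts of called collagens changed by over 1.5 times in these cases. For footprints at 7 h of KCl, where the count was 0, it was 1 with DESeq2, with no filter and with only the groups compared, and 0 to 1 with 1 library left out. For efficiency at 2 h of H2O2 (1) it was 0 with voom weights or only the groups compared, and 0 to 2 with 1 library left out. For efficiency at 2 h of KCl (3) it was 1 with no filter, 0 with only the groups compared, and 0 to 4 with 1 library left out. With 1 library left out it was also 12 to 19 for H2O2 against KCl at 2 h (20), 4 to 8 for footprints at 7 h of H2O2 (11) and 0 to 2 for efficiency at 7 h of KCl (0). A lone library was then assumed to vary like the other groups.

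Replicate numbers are shared by the labels without a stated pairing, and same-numbered libraries did not deviate together throughout (correlations from 0.053 to 0.103 for heat RNA, from -0.177 to 0.241 for H2O2 and KCl RNA, and for footprints from 0.195 to 0.437 between groups other than 2 h of H2O2 and from -0.41 to -0.036 with that group). With the replicate block the count was 1 for footprints at 7 h of KCl, 11 for footprints and 25 for RNA at 7 h of H2O2, 24 for RNA at 44 °C, 11 for RNA at 2 h of H2O2, 6 for efficiency at 7 h of H2O2 and 4 for efficiency at 2 h of KCl. Col1a1, the 1 collagen called lower at 2 h of H2O2, lost its call under the block (-0.16, adjusted p = 0.0581), and the other counts kept their main value. Footprint depth of 1460751 to 5168537 counts limits the tests of members below about 1 TPM, and with 2 libraries per group a call can rest on 1 of them.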
